A study of Mus musculus with 4 samples.

Results

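Trdc+ T cells were studied in the lungs of mice, as the cells that carry the transcript of the T cell receptor delta constant region (Trdc) together with a transcript of the CD3 complex and no transcript of Cd4, Cd8b1, Ncr1 or Cd79a. They were chosen by the UMI counts of these transcripts (unique molecular identifiers, which count captured RNA molecules), among barcodes that had over 200 genes detected and less than 15% of UMIs from mitochondrial genes. The rule found 242 cells among 27544 kept barcodes of 28805 in all. Because the rule uses measured transcripts, the presence of Trdc and CD3 transcripts and the absence of the other 4 are not findings.

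The study compared C57BL/6 mice with floxed Ift20 alleles (Ift20 f/f) that lacked Cre, called WT, with Ift20 f/f mice that carried CD4 cre, called KO. The floxed allele, with loxP sites in introns 1 and 3, is thus shared by all 4 groups, and Cre removes exons 2 and 3. Mice received either DPBS, a buffered saline, or 25 µg papain, a protease used as an inhaled allergen, through the nose on 3 consecutive days, were challenged on day 14 and were examined on day 15. Live CD45.2+ lung cells were sorted, and 1 library of 10x Genomics 3′ single-cell RNA was made for each of the 4 combinations, called DPBS WT, Papain WT, DPBS KO and Papain KO. Where 4 values are given for the libraries without names, the DPBS pair stands before the papain pair and WT before KO in each pair. The study used male mice aged 5 to 10 weeks, and the number of mice behind each library is not given in the sources used here. The CD4 promoter that drives Cre is active in thymocytes at the stage that carries both CD4 and CD8, and in CD4 T cells. Each group had 1 library, so that a contrast within 1 treatment or 1 genotype could not be tested, and all intervals between libraries are 95% intervals of counting error only. The effects of genotype and of treatment over the 4 sums of Trdc+ T cells were tested in 1 additive edgeR model, which leaves 1 residual degree of freedom.

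Gamma-delta T cells carry a receptor made of a γ and a δ chain in place of the α and β chains of conventional T cells. Many leave the thymus already committed, one branch to making IL-17 and another to interferon-γ and cytotoxic functions. In the lung and other barrier tissues they are known as early sources of these cytokines, and mouse γ and δ variable segments differ between tissues. The γ constant genes Tcrg-C1, Tcrg-C2 and Tcrg-C4 lie on chromosome 13, whereas Trdc lies within the locus that also holds the α constant gene Trac on chromosome 14 (GRCm38, Trdc at chr14:54142851-54148868 and Trac at chr14:54220521-54224206, both on the plus strand).

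The last coding stretch of the 3 γ constant genes is shown because counts of these genes were used to check the label of the cells. In the GENCODE annotation of GRCm38 it is the coding part of the final exon, at chr13:19216476-19216615 (plus strand) for Tcrg-C1, chr13:19305063-19305202 (minus strand) for Tcrg-C2 and chr13:19352201-19352340 (plus strand) for Tcrg-C4. Capitals mark bases that differ from Tcrg-C1.
Tcrg-C1: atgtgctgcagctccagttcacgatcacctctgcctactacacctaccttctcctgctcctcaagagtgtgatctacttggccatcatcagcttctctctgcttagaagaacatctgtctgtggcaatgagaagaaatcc
Tcrg-C2: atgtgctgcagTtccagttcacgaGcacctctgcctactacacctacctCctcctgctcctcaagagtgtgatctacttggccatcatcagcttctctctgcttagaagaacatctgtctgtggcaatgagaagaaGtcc
Tcrg-C4: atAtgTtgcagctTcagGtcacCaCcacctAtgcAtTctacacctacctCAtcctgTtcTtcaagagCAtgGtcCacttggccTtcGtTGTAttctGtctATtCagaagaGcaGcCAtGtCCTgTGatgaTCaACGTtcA
Tcrg-C2 differed from Tcrg-C1 at 4 of these 140 bases (97.1% identity), and Tcrg-C4 at 44 of them (68.6% identity). The rest of the transcript after this stretch, 409 bases in Tcrg-C1 and 414 in Tcrg-C2, had a longest shared run of 104 bases. Between Tcrg-C4 and either of the others the longest run was 9 bases. Which of these stretches the 3′ reads cover was not examined, so that the split of UMIs between Tcrg-C1 and Tcrg-C2 is uncertain.

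The γ constant transcripts bore out the label of gamma-delta T cells for some of the cells and not for others. A Tcrg-C1, Tcrg-C2 or Tcrg-C4 UMI was present in 155 of the 242 cells (64.0%), and a Trac UMI in 119 (49.2%). Of the 242 cells, 103 had a γ constant UMI without Trac, 52 had both, 67 had Trac without any γ constant UMI, and 20 had neither. The 67 cells with Trac alone had a median of 1 Trdc UMI, whereas the 103 cells with γ constant transcripts alone had a median of 10.0. Transcripts of the β constant genes Trbc1 or Trbc2 were found in 237 cells (97.9%). Since 67 cells went against the label, the cells are called Trdc+ T cells here, and results are given without the 67 where that changes them.

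The share of cells with a γ constant UMI was higher at each step of Trdc count, from 8.62% of the 58 cells with 1 Trdc UMI, through 37.0% of 27 cells with 2 UMIs and 71.0% of 31 cells with 3 to 5 UMIs, to 93.7% of 126 cells with 6 or more. The share with Trac was 82.8%, 63.0%, 32.3% and 34.9% over the same steps. Just outside the rule, 2786 cells with CD3 transcripts but no Trdc UMI, otherwise alike, held γ constant UMIs in 7.57%, close to the cells with 1 Trdc UMI. Barcodes left out for a Cd8b1 UMI alone among the excluded genes numbered 123 and held γ constant UMIs in 28.5%, and 65 left out for Cd4 held them in 9.23%. The 37 left out for Cd79a held them in 67.6%, at a median of 8 Trdc UMIs.

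**Figure D1:**
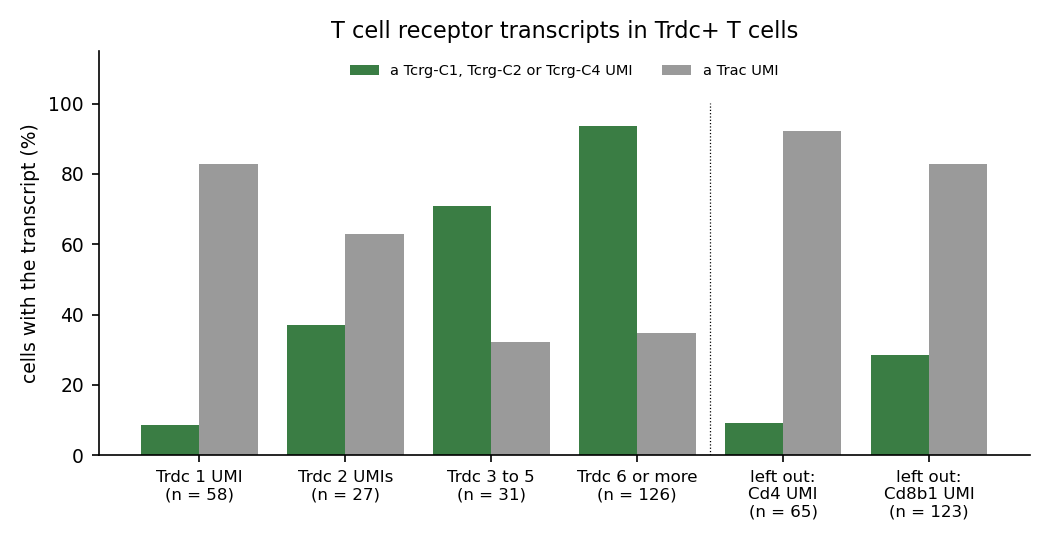
Percent of cells with a Tcrg-C1, Tcrg-C2 or Tcrg-C4 UMI (green) and with a Trac UMI (grey), for the 242 Trdc+ T cells by Trdc count and, right of the dotted line, for cells with Trdc and CD3 UMIs left out for Cd4 or Cd8b1. The green bars stand at 8.62% with 1 Trdc UMI and at 93.7% with 6 or more.

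Free RNA was gauged in B cells, which do not use Trdc. A Trdc UMI was found in 0.398%, 0.183%, 0.251% and 0.314% of B cells, in the library order given above, at median depths from 4031 to 4960 UMIs. Cells with a CD3 transcript held one in 4.69%, 5.29%, 3.94% and 5.65% in the same order, at median depths from 6246 to 7540 UMIs. After all cells were thinned to 1500 UMIs, the shares were 0.121%, 0.0615%, 0.0422% and 0.158% in B cells and 2.60%, 2.97%, 2.30% and 3.04% in CD3-positive cells. The share in CD3-positive cells was thus above that in B cells in each library.

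Trdc+ T cells made up a like share of the kept barcodes in the 4 libraries. With DPBS they numbered 71 of 8144 barcodes of the WT library (0.872%, exact interval 0.681 to 1.10) and 54 of 5704 of the KO library (0.947%, 0.712 to 1.23). With papain they numbered 66 of 7994 (0.826%, 0.639 to 1.05) for WT and 51 of 5702 (0.894%, 0.667 to 1.17) for KO. The KO over WT log2 ratio of the shares was 0.12 (−0.42 to 0.65) with DPBS and 0.12 (−0.44 to 0.66) with papain, so that a difference was not detectable at this depth. The papain over DPBS log2 ratio was −0.08 (−0.58 to 0.43) in WT and −0.08 (−0.66 to 0.50) in KO. With all counts thinned to 1500 UMIs the shares were 0.831%, 0.711%, 0.702% and 0.900%.

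The cells with Trac and no γ constant UMI were spread over the libraries, numbering 19, 14, 14 and 20. They formed 26.8%, 25.9%, 21.2% and 39.2% of the Trdc+ T cells, with the highest share in Papain KO. Without any cell that held a Trac UMI, the KO over WT log2 ratio of the shares with papain was −0.80.

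Library totals lay between 53854420 and 75675956 UMIs, and the Trdc+ T cells of a library summed to between 386947 and 514062 UMIs at medians from 5769 to 6726 UMIs per cell. Between 7 and 16 barcodes were shared by any pair of libraries, with none of them a Trdc+ T cell. Of the 242 cells, 14 were scored as doublets (7, 1, 4 and 2 by library). The summed CPM (UMIs per 1000000 UMIs) of marker lists of other cells in the Trdc+ T cells ranged over the libraries from 2.45 to 2163 for 4 neutrophil genes, from 1134 to 3739 for 7 macrophage genes, from 164 to 664 for 6 B cell genes, from 85.3 to 381 for 6 NK genes and from 74.0 to 129 for 6 ILC2 genes, of which Il1rl1 was at 0. Of 6 markers of lung structure and red cells, 5 were at 0 and the sum lay between 5.84 and 15.5 CPM. Neutrophil genes were lowest in DPBS KO and highest in Papain KO.

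What sets Trdc+ T cells apart from conventional T cells of the same lungs was tested across the 4 libraries. CD4 T cells (2763 cells with CD3 and Cd4 transcripts) and CD8 T cells (3184 with CD3 and Cd8b1 transcripts), all without Trdc, were summed per library and compared with the summed Trdc+ T cells by edgeR's quasi-likelihood test with the library as block and Benjamini-Hochberg adjustment. The 8 genes of the rule were left out. Trdc+ T cells exceeded CD4 T cells in 99 of 9109 genes tested (1.09%) and fell below them in 66 (0.725%). They exceeded CD8 T cells in 167 of 9654 genes (1.73%) and fell below them in 206 (2.13%). Of 9055 genes tested in both comparisons, 47 (0.519%) were higher in both, 20 (0.221%) were lower in both, and 9 went opposite ways. Some of the 47, among them the γ constant genes, passed the filter on low counts only through the sums of Trdc+ T cells. That count is therefore in part a description.

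These counts depended on scaling and on single libraries. With total UMIs and no TMM factors, which shifted the median gene by 0.11 (log2) against CD4 T cells and by 0.28 against CD8 T cells, 127 genes were higher and 37 lower than in CD4 T cells, and 761 higher and 130 lower than in CD8 T cells. Without DPBS WT the counts were 54 and 26 against CD4 T cells and 86 and 134 against CD8 T cells. Without Papain KO 36 genes were lower than in CD4 T cells, and without DPBS KO 99 were higher and 136 lower than in CD8 T cells.

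The genes of the receptor itself stood furthest apart. Tcrg-C4 was present at 146, 269, 154 and 160 CPM in the Trdc+ T cells of the 4 libraries, against 0.288 to 1.48 CPM in CD4 T cells and 0.416 to 1.29 CPM in CD8 T cells. Its log2 fold change was 7.13 ± 0.28 (SE, n = 4 libraries) over CD4 T cells (adjusted p = 2.19e-06) and 7.44 ± 0.24 over CD8 T cells (adjusted p = 9.62e-09). All 4 libraries of Trdc+ T cells lay above all sums of either comparison. Tcrg-C1, Tcrg-C2 and Tcrg-C4 passed the filter on low counts in both comparisons only through the sums of Trdc+ T cells, where they are high. Their fold changes and adjusted p are therefore a description.
Tcrg-C2 lay between 146 and 217 CPM and was higher by 6.34 ± 0.39 and 6.49 ± 0.34 (log2), and Tcrg-C1 lay between 103 and 196 CPM and was higher by 6.32 ± 0.32 and 6.30 ± 0.23. Trac, the α constant gene, was present at 257, 238, 118 and 246 CPM in the Trdc+ T cells and fell by 1.74 ± 0.18 (log2) relative to CD4 T cells (adjusted p = 0.000815) and by 1.35 ± 0.15 relative to CD8 T cells (adjusted p = 0.000171). Trbc1 and Trbc2 passed the test in neither comparison.
The γ variable segment Trgv2 held 61 UMIs in the Trdc+ T cells (33.1, 36.7, 31.7 and 36.2 CPM) against 2 UMIs in all CD4 T cells and 14 in all CD8 T cells. Its pooled log2 ratio was 8.57 (counting interval 6.65 to 11.64) over CD4 T cells.

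Of the other genes higher in both comparisons, several mark gamma-delta T cell subsets. Cd163l1, a scavenger-receptor family gene of IL-17-committed gamma-delta T cells, was at 99.2, 186, 42.3 and 72.4 CPM, against at most 0.738 CPM in CD4 T cells and 8.57 CPM in CD8 T cells. Its log2 fold change was 7.48 ± 0.47 (adjusted p = 3.02e-05) and 4.37 ± 0.47 (adjusted p = 0.000123). Its related gene 5830411N06Rik was higher by 5.13 ± 0.57 and 3.41 ± 0.33 (log2).
Blk, a Src-family kinase known in the same subset, was at 42.8, 44.1, 29.6 and 46.5 CPM and was higher by 5.04 ± 0.54 and 4.32 ± 0.33 (log2). The transcription factor gene Sox5 was at 9.73, 26.9, 8.46 and 7.75 CPM and was higher by 4.68 ± 0.61 and 4.46 ± 0.57. Zbtb16, which encodes the innate lymphocyte factor PLZF, was higher by 3.65 ± 0.58 and 3.42 ± 0.45, and Ikzf2, which encodes Helios, by 1.98 ± 0.25 and 2.88 ± 0.12. Zbtb16, Cd163l1, Blk and 5830411N06Rik also passed the filter on low counts in both comparisons only through the sums of Trdc+ T cells. Their fold changes and adjusted p are likewise a description.
Pde5a, a cGMP phosphodiesterase gene, lay between 12.2 and 25.3 CPM and was higher by 4.51 ± 0.63 and 5.51 ± 0.77 (log2). Spry2, which encodes an inhibitor of receptor tyrosine kinase signalling, lay between 28.4 and 80.8 CPM and was higher by 5.40 ± 0.50 and 3.88 ± 0.29. For each of these genes all 4 sums of Trdc+ T cells lay above all 8 sums of CD4 and CD8 T cells where values are given. Sox5, Pde5a and Spry2 were likewise scarce in the conventional T cells. They held 9, 22 and 26 UMIs in all CD4 T cells and 12, 9 and 84 in all CD8 T cells. Their fold changes are also a description.

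Genes of natural killer receptors and chemokines were also higher. Klrb1c, the gene of NK1.1, was at 48.6, 17.1, 48.6 and 33.6 CPM and was higher by 5.24 ± 0.35 and 3.79 ± 0.35 (log2). Xcl1, a chemokine that attracts dendritic cells, was higher by 4.43 ± 0.34 and 2.32 ± 0.22, Klrk1, the gene of the activating receptor NKG2D, by 3.57 ± 0.21 and 1.95 ± 0.27, and the chemokine gene Ccl5 by 3.55 ± 0.38 and 1.09 ± 0.23. Il2rb, the β chain of the IL-2 and IL-15 receptors, was higher by 1.56 ± 0.13 and 0.56 ± 0.14. Against CD8 T cells Il2rb passed the test in 11 of 16 alternatives. Klrb1c in both comparisons, and Xcl1 against CD4 T cells, passed the filter on low counts only through the sums of Trdc+ T cells. Klrd1 and Ly6c2 went opposite ways, being higher than in CD4 T cells and lower than in CD8 T cells. Against CD8 T cells Klrd1 passed the test in 10 of 16 alternatives and Ly6c2 in 6 of 16, whereas both passed in 16 of 16 against CD4 T cells. Ly6c2 was no longer lower than in CD8 T cells once cells with Trac were left out, at a log2 fold change of 0.078. The rule left out cells with Ncr1, and the part of NK cells without a captured Ncr1 UMI in these values was not tested.

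Among genes lower in both comparisons, Dapl1, a gene of naive T cells, was at 75.9, 56.3, 46.5 and 54.3 CPM and fell by 1.14 ± 0.15 (log2) relative to CD4 T cells and by 2.04 ± 0.13 relative to CD8 T cells. Ccr7, the lymph node homing receptor, fell by 0.93 ± 0.20 and by 1.28 ± 0.16, and Cd6, a surface modulator of T cell receptor signals, by 1.22 ± 0.16 and by 0.78 ± 0.15. Inpp4b, a phosphoinositide phosphatase gene, fell by 1.38 ± 0.16 and by 1.05 ± 0.16. The rule for naming genes also named Slfn1, Rflnb, Kif23, Als2cl and Tppp3 as lower in both. Ccr7 passed the test against CD4 T cells in 8 of 16 alternatives. Kif23 and Tppp3 passed in 5 and 6 of 15 against CD4 T cells and in 4 and 5 of 14 against CD8 T cells. Als2cl, Rflnb and Slfn1 passed in 9, 10 and 15 of 16 against CD4 T cells. Against CD8 T cells Als2cl passed in 14 of 15, Rflnb in 13 of 16 and Slfn1 in 11 of 16.
Cd209a and Mgl2, lectin genes of dendritic cells and macrophages, had 1 UMI each in the Trdc+ T cells. Against 290 UMIs in CD4 T cells and 278 in CD8 T cells, the pooled log2 ratios of Cd209a were −4.54 (counting interval −9.85 to −2.06) and −4.16 (−9.47 to −1.67). Against 241 and 201 UMIs, those of Mgl2 were −4.28 (−9.59 to −1.79) and −3.70 (−9.01 to −1.20), and the call of Mgl2 against CD4 T cells held in 6 of 13 alternatives.

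**Figure D2:**
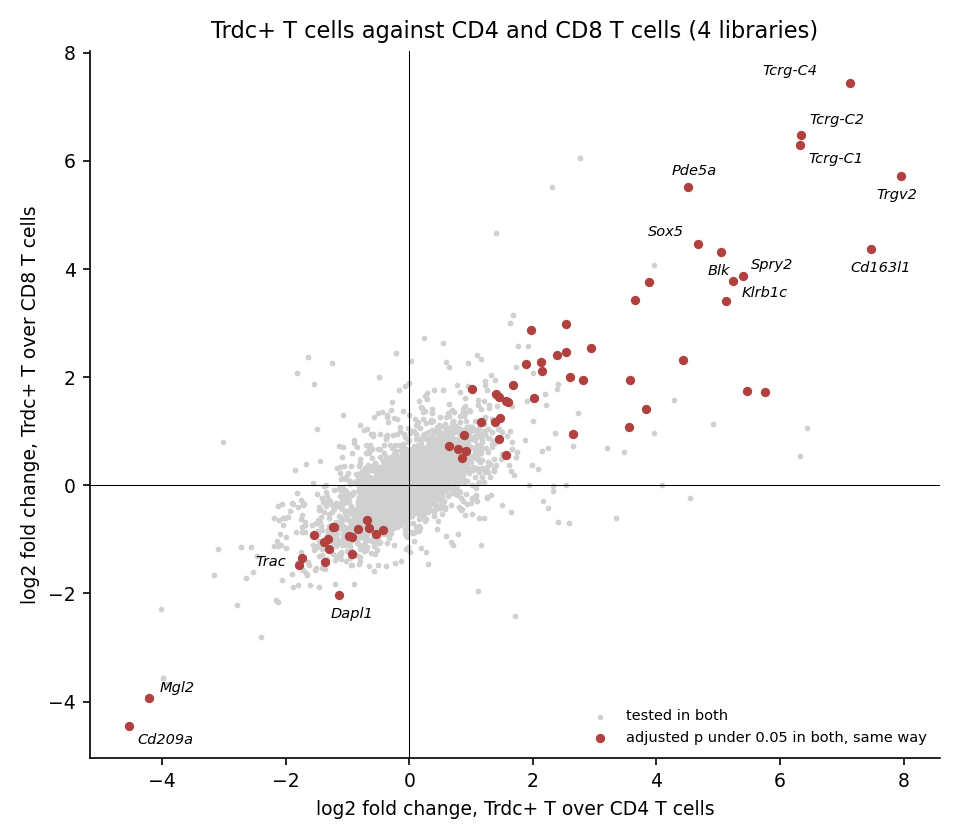
Log2 fold change of Trdc+ T cells over CD4 T cells (x axis) and over CD8 T cells (y axis) for the genes tested in both, from 4 libraries. Red points mark the 47 genes higher and the 20 lower in both, with Tcrg-C4 at 7.13 and 7.44 and Trac at −1.74 and −1.35. Some of the 47 passed the filter on low counts only through the sums of Trdc+ T cells.

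The lists of known programmes were counted beside these shares. Of 11 core genes of type 17 gamma-delta T cells, 8 could be tested against CD4 T cells, of which Cd163l1, Blk and 5830411N06Rik were higher and none was lower. Against CD8 T cells 5 could be tested, of which these 3, Tmem176a and Tmem176b were higher, and the other 6 did not pass the filter on low counts. Cd163l1, Blk and 5830411N06Rik passed this filter only through the sums of Trdc+ T cells, where they are high, so that these counts are a description. In each comparison 2 genes of the list passed it in the T cell sums alone, of which none was called against CD4 T cells and both were higher than in CD8 T cells.
Of 11 core genes of cytotoxic cells, all tested, 7 were higher than in CD4 T cells (Klrk1, Xcl1, Klrd1, Il2rb, Ccl5, Klrc1 and Nkg7). Xcl1, Klrc1 and Eomes passed the filter there only through the sums of Trdc+ T cells, and 5 of the remaining 8 were higher. Against CD8 T cells, where all 11 passed in the T cell sums alone, 4 were higher, Klrd1 was lower, and the median log2 fold change was 0.56 beside 0.00 for all genes. In a wider cytotoxic list 7 of 13 were higher than in CD4 T cells and 5 of 13 higher than in CD8 T cells. Ccl3, Cd160, Klra7, Klrb1c and Klre1 passed the filter against CD4 T cells only through the sums of Trdc+ T cells. Of the remaining 8, 2 were higher. Gzmk and Klrb1c passed it only in this way against CD8 T cells, and of the remaining 11, 4 were higher. The NK list, of which 4 genes could be tested, had Klrb1c and Klre1 higher in both comparisons. Klrb1c passed the filter in both only through the sums of Trdc+ T cells, and Klre1 and Eomes did so against CD4 T cells. The 1 gene that passed in the CD4 T cell sums alone was not called. Of the 3 that passed in the CD8 T cell sums alone, 1 was higher.
Of 10 genes of naive and circulating T cells, Dapl1, Ccr7 and Igfbp4 were lower than in CD4 T cells and Ly6c2 was higher. Against CD8 T cells, the genes of this list that were lower included Dapl1, Ccr7, Ly6c2 and Lef1. Among 22 lineage transcription factors tested against CD4 T cells, Sox4, Ikzf2, Id3 and Zbtb16 were higher and Foxp3 and Bcl11b lower, and among 20 tested against CD8 T cells, Ikzf2, Maf, Rora, Sox4, Zbtb16 and Zbtb7b were higher and Lef1 lower. Of these, Zbtb16 passed the filter in both comparisons only through the sums of Trdc+ T cells.
Of 17 genes of T cell receptor signalling, Cd6, Cd5, Cd28 and Lat were lower and Ptpn22 higher than in CD4 T cells, and Cd6 and Themis were lower than in CD8 T cells. Of 16 activation genes, Ctla4, Tnfrsf4 and Icos were lower than in CD4 T cells, while Pdcd1, Tnfrsf9, Nr4a1 and Junb were higher than in CD8 T cells. Pdcd1 passed the filter against CD8 T cells only through the sums of Trdc+ T cells. The genes that the study connected with Ift20, in AKT and mTOR signalling (3 genes), glycolysis (4), pyruvate metabolism and the TCA cycle (5) and the Ift20 complex with its partners (7 tested against CD4 T cells and 8 against CD8 T cells), had no gene called by edgeR in either comparison. Over all genes an unadjusted p under 0.05 was given to 1118 against CD4 T cells and 1283 against CD8 T cells.

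The Trdc+ T cells were next divided by their own transcripts. A cell was called type 17 if it held UMIs of at least 2 of the 11 type 17 core genes and of more of these than of the 11 cytotoxic core genes, cytotoxic in the reverse case, and neither otherwise. This is a range cut from 2 counts and not a sort of cell types. Of the 242 cells, 32 (13.2%) were type 17, 129 (53.3%) cytotoxic and 81 (33.5%) neither. At the cut itself lay 5 type 17 and 31 cytotoxic cells, 11 cells fell 1 gene short of type 17, and 53 of the cells called neither held no core gene at all. Of the 67 cells with Trac and no γ constant UMI, 54 (80.6%) were called neither.

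With DPBS, type 17 cells numbered 11 of 71 for WT (15.5%, exact interval 7.996 to 26.03) and 6 of 54 for KO (11.1%, 4.19 to 22.6). With papain they numbered 8 of 66 for WT (12.1%, 5.38 to 22.5) and 7 of 51 for KO (13.7%, 5.70 to 26.3). Cytotoxic cells formed 60.6% (48.3 to 72.0), 46.3% (32.6 to 60.4), 60.6% (47.8 to 72.4) and 41.2% (27.6 to 55.8) in the same order. The KO libraries had the lower share of all Trdc+ T cells, but the KO over WT log2 ratio was −0.39 (−1.16 to 0.36) with DPBS and −0.56 (−1.39 to 0.24) with papain, and both intervals hold 0. Among cells with a γ constant UMI the cytotoxic share was 75.5%, 65.7%, 66.7% and 65.5% in library order, at a KO over WT log2 ratio of −0.20 (−1.02 to 0.59) with DPBS and −0.025 (−0.95 to 0.87) with papain. Without any cell that held Trac the share was 64.7%, 51.9%, 68.2% and 72.2%, so that with papain it was not the lower in KO. Thinned to 1500 UMIs, the cytotoxic share was 46.5%, 27.5%, 43.9% and 23.5%, with 3 shallower cells of DPBS KO left out.

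Genes that took no part in the division also differed between the classes, given here as a description. Il17a, the cytokine IL-17A, held 157 UMIs in 13 of the 32 type 17 cells, none in the 129 cytotoxic cells and 6 UMIs in 1 cell called neither. Ifng, interferon-γ, held 85 UMIs in 27 cells, all of them cytotoxic. Each cytokine therefore lay almost wholly in 1 class.
Maf, a transcription factor gene of IL-17-making cells, was at 327 CPM in type 17, 53.8 in cytotoxic and 38.5 in the remaining cells, and Cxcr6, a tissue homing receptor, at 429, 54.8 and 0 CPM. Actn2 was at 217, 4.72 and 13.6 CPM. The type 17 cells were highest for all 3 genes.
Klrb1c (68 UMIs) and Klre1 (80 UMIs) were found in cytotoxic cells alone, and Ly6c2 held 472 UMIs in 71 cytotoxic cells against 2 UMIs in each of the other classes. Sox4, a transcription factor gene of immature and innate-like lymphocytes, was at 17.7 CPM in type 17 cells, 280 in cytotoxic cells and 297 in the rest. Ccr7 was at 56.8, 206 and 722 CPM and Trac at 49.7, 130 and 516 CPM, both highest in the cells called neither.
Macrophage and neutrophil transcripts were not spread evenly either. Lyz2 was at 3003 CPM in type 17, 1739 in cytotoxic and 396 in the remaining cells, and their part in the differences between classes was not tested.

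The γδ receptor genes differed by class too. Of all γ constant UMIs, Tcrg-C1 held 51.1% in type 17 cells, 26.5% in cytotoxic cells and 26.1% in the remaining cells, with the split from Tcrg-C2 uncertain as above. Tcrg-C4, whose sequence is distinct, held 22.3% in type 17, 36.6% in cytotoxic and 40.3% in the remaining cells. The δ variable segment Trdv4 was found in 8 of 32 type 17 cells and in 2 of 129 cytotoxic cells. Trgv2 was found in 28 cytotoxic, 6 type 17 and 8 other cells. Tcrg-V6 was seen in 2 cells, both type 17.

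**Figure D3:**
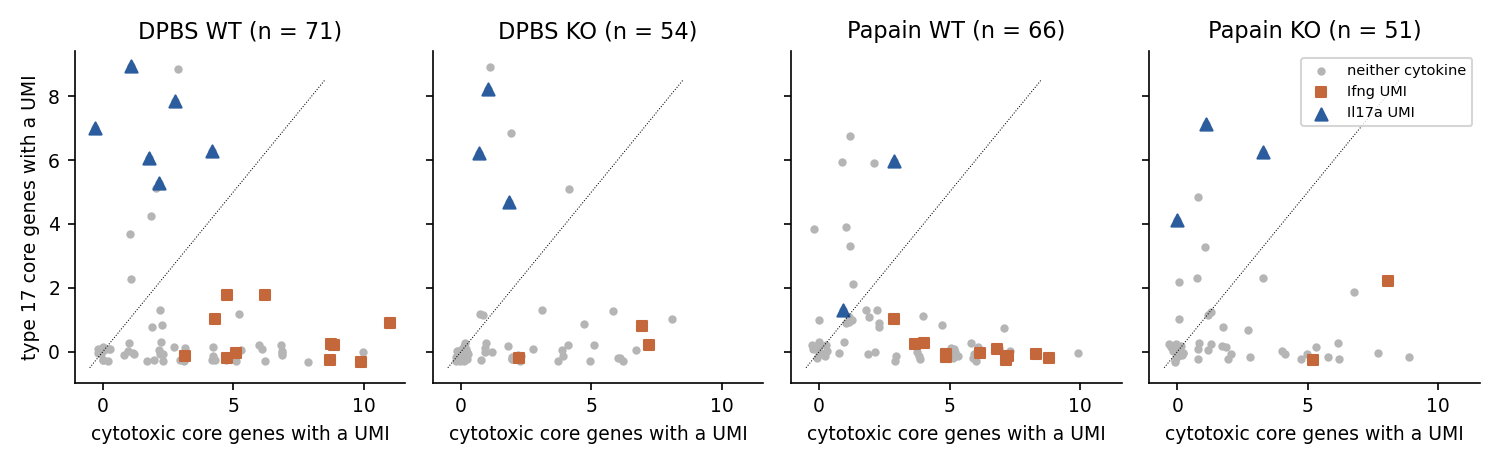
Each point is 1 Trdc+ T cell, placed by the number of cytotoxic core genes (x axis) and type 17 core genes (y axis) with a UMI, with a small random offset, in 1 panel per library. Blue triangles hold an Il17a UMI and orange squares an Ifng UMI. Ifng cells lie below the dotted line of equal counts in each library.

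Trdc+ T cells held most Il17a molecules of the DPBS WT lung sample but few after papain. With DPBS they held 77 of 117 Il17a UMIs of the WT library (65.8%) and 39 of 107 of the KO library (36.4%). With papain they held 24 of 718 (3.34%) for WT and 23 of 313 (7.35%) for KO. The cells behind these counts were 6 of 18 Il17a-positive barcodes, 3 of 13, 2 of 52 and 3 of 34, and 66 of the 77 UMIs in DPBS WT lay in 1 cell. CD4 T cells held 6, 0, 325 and 165 Il17a UMIs in the same order. The number of Il17a-positive Trdc+ T cells was thus between 2 and 6 in each library, while CD4 T cells held more Il17a UMIs in the papain libraries.
Within Trdc+ T cells the papain over DPBS log2 ratio of Il17a was −1.56 (−2.29 to −0.88) in WT, and the KO over WT ratio was −0.65 (−1.24 to −0.07) with DPBS and 0.23 (−0.66 to 1.12) with papain. Without doublet-scored cells the papain KO over WT ratio was 2.09, and without cells that held Trac it was −0.78. UMIs of 1 cell are not independent, so that these intervals are too narrow.
Against CD8 T cells Il17a, Il17f and Tnfsf11 were the 3 of 10 tested effector cytokine genes that were higher, and none of 10 passed the test against CD4 T cells. These 3 passed the filter on low counts against CD8 T cells only through the sums of Trdc+ T cells, so that their count is a description. Of the 5 genes of the list that passed it in the CD8 T cell sums alone, none was called.

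**Figure D4:**
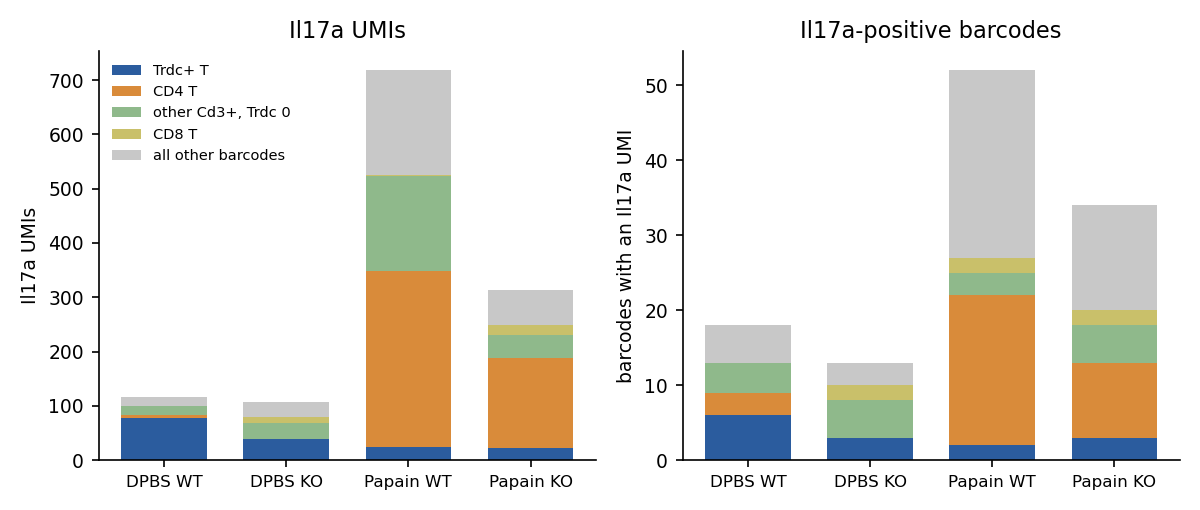
Il17a UMIs (left) and barcodes with an Il17a UMI (right) in each library, stacked by the kind of cell that held them. Trdc+ T cells (blue) held 77 of 117 UMIs in DPBS WT and 24 of 718 in Papain WT.

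Ifng in Trdc+ T cells held fewer UMIs in both KO libraries. With DPBS it held 48 UMIs in 11 WT cells and 5 UMIs in 3 KO cells, and with papain 27 UMIs in 11 WT cells and 5 UMIs in 2 KO cells. In DPBS WT 22 of the 48 lay in 1 cell and 9 in doublet-scored cells. The highest cell held 9 of the 27 in Papain WT and 4 of the 5 in Papain KO. The KO over WT log2 ratio was −2.93 (−4.62 to −1.61) with DPBS and −2.14 (−3.88 to −0.75) with papain. Without cells that held Trac, the papain ratio was −0.78. In the additive model the KO over WT log2 fold change of Ifng was −2.55 ± 0.41 (SE), which did not pass edgeR's test with Benjamini-Hochberg adjustment (adjusted p = 1.00), and Ifng passed when genes of low counts were tested too. NK markers moved the same way, with summed levels of 381 and 252 CPM in the WT libraries against 93.1 and 85.3 CPM in the KO libraries. Some of these markers, such as Klrb1c and Klre1, are also genes of the cytotoxic lists. The part of NK cells in the Ifng values was not tested.
Tnf held 37, 33, 5 and 4 UMIs in 15, 9, 4 and 4 cells of the libraries. Of these UMIs, 18 of the 33 in DPBS KO lay in 1 cell and 14 of the 37 in DPBS WT in doublet-scored cells. Its papain over DPBS log2 ratio was −2.77 for WT (−4.47 to −1.42) and −2.97 for KO (−4.93 to −1.48). The additive model gave −2.82 ± 0.38 (edgeR adjusted p = 0.782). The epithelial repair factor gene Areg held 28, 7, 5 and 5 UMIs in 6, 3, 4 and 4 cells in the same order. In DPBS WT 18 of the 28 lay in 1 cell, and in DPBS KO 5 of the 7. The type 2 cytokine gene Il5 and the genes Il10 and Il22 had no UMI in any Trdc+ T cell, which allows at most 3 UMIs per library.

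Ift20, the gene with the floxed allele (GRCm38 chr11:78536361-78541737, plus strand), encodes a subunit of the intraflagellar transport complex, which carries cargo to cilia and, in T cells, to the immune synapse. The counts are of 3′ reads over the whole gene, and whether they cover the deleted exons was not examined, so that Ift20 UMIs cannot be read as a measure of the deletion. In Trdc+ T cells Ift20 with DPBS was at 70.0 CPM for WT (36 UMIs, interval 49.0 to 97.0) and 58.8 CPM for KO (24 UMIs, 37.7 to 87.5). With papain it was at 55.0 CPM for WT (26 UMIs, 35.9 to 80.5) and 33.6 CPM for KO (13 UMIs, 17.9 to 57.5). The KO over WT log2 ratio was −0.25 (−1.06 to 0.53) with DPBS and −0.71 (−1.79 to 0.30) with papain, both below 0 with intervals that hold it. The additive model gave −0.46 ± 0.32, which did not pass the test (edgeR adjusted p = 1.00).
In CD4 T cells the ratios were −1.32 (−1.69 to −0.97) and −1.67 (−2.03 to −1.33), and in CD8 T cells −1.51 (−1.82 to −1.21) and −1.64 (−1.95 to −1.34). The other CD3-positive cells without Trdc lay between, at −0.61 (−0.85 to −0.36) and −1.01 (−1.29 to −0.73). B cells were at −0.33 (−0.52 to −0.16) and 0.01 (−0.14 to 0.17).
The ratio of Trdc+ T cells minus that of CD4 T cells was 1.07 (0.25 to 1.89) with DPBS and 0.96 (−0.06 to 1.98) with papain. Minus that of CD8 T cells it was 1.26 (0.46 to 2.06) and 0.93 (−0.07 to 1.94). The decrease of Ift20 UMIs was therefore smaller in Trdc+ T cells than in either conventional set with DPBS, beyond counting error, and with papain the intervals hold 0.
Among the 155 cells with a γ constant UMI, the KO over WT ratios were −0.31 (−1.20 to 0.55) and −0.60 (−1.85 to 0.55). Without cells that held Trac, the papain ratio was −1.39.

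**Figure D5:**
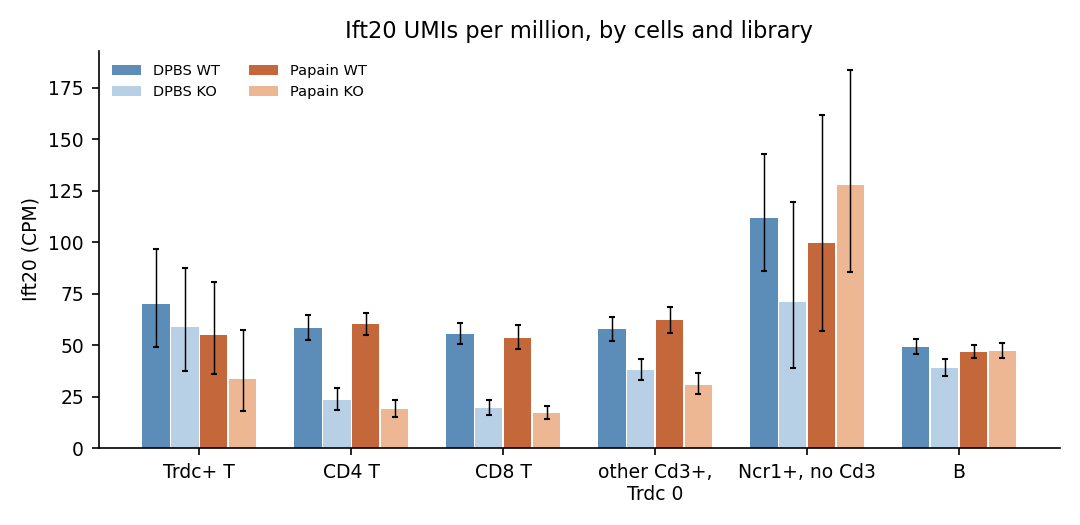
Ift20 CPM in Trdc+ T cells, CD4 T, CD8 T, other CD3-positive cells, Ncr1-positive cells without CD3 and B cells, with 1 bar per library and exact 95% Poisson intervals of counting error. In Trdc+ T cells the bars stand at 70.0, 58.8, 55.0 and 33.6 CPM with overlapping intervals.

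Between libraries, the Trdc+ T cells were searched for the genes with the largest ratios. A log2 ratio of at least 1 was found higher in 4.34% and lower in 3.70% of 4079 genes for KO over WT with DPBS, in 2.52% and 2.65% of 3844 genes for KO over WT with papain, in 2.56% and 2.37% of 4266 genes for papain over DPBS in WT, and in 3.06% and 4.71% of 3629 genes for papain over DPBS in KO. In the additive model over the 4 sums, edgeR called none of 5501 genes (0%) for KO over WT, with 160 at an unadjusted p under 0.05, and none (0%) for papain over DPBS, with 143. DESeq2 called none for KO over WT and Gdf15 as lower for papain over DPBS. With all 13252 genes that had a UMI tested, 3 genes were higher in KO (Ifi27l2a, Ptgs2 and Slc15a2) and 8 lower. The 8 were Ccl5, Ccl6, Chil3, Gzma, Gzmb, Gzmc, Ifng and S100a1. In the same fit 2 genes were higher with papain (Gm42418 and Gzmc) and 6 lower, with Tnf among them. Gdf15, Ifi27l2a, Ptgs2, Slc15a2, Ccl6, S100a1, Gm42418 and Gzmc were named after their values were seen.
Several of the largest ratios rested on few cells. For Il1b, the gene of interleukin-1β, the DPBS KO over WT log2 ratio was −5.47 (−8.54 to −3.59), with 101 of 112 UMIs of DPBS WT in 1 cell. Without doublet-scored cells it was −0.54.
For S100a9, a neutrophil gene, the papain KO over WT log2 ratio was 7.15 (5.79 to 9.04), with 297 and 165 of the 466 Papain KO UMIs in 2 cells, and without doublet-scored cells it was 0.57. Cd74, the MHC class II invariant chain, held 323, 14, 153 and 377 UMIs in the libraries, with 335 of the last in 1 cell. Chil3, a macrophage gene, held 386 UMIs in WT and 24 in KO with papain (−3.72, −4.38 to −3.12), and the ratio was −0.54 without doublet-scored cells. Cxcl2, Ifitm2, Ifitm3, H2-Aa, H2-Eb1, Ms4a6c, Ccl4, Cxcl10, G0s2 and Ier3 were also named by the rule.

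Pmepa1, a feedback inhibitor of TGF-β signalling, was spread over more cells and held 25 UMIs in 11 WT cells and 91 UMIs in 32 KO cells with DPBS, and 94 UMIs in 30 WT cells and 42 UMIs in 20 KO cells with papain. The KO over WT log2 ratio with DPBS was 2.20 (1.54 to 2.90), and the papain over DPBS ratio in WT was 2.03 (1.38 to 2.73). With only cells that held a γ constant UMI these were 2.09 and 2.14. In the additive model neither effect on Pmepa1 passed edgeR's test (log2 0.59 ± 0.70 for KO and 0.45 ± 0.70 for papain).
Tubb2a, a β-tubulin gene, held 17, 80, 69 and 8 UMIs in 12, 18, 19 and 8 cells of the libraries. With only cells that held a γ constant UMI, its papain over DPBS ratio in WT turned from 2.14 to −0.078. Serpinb9, an inhibitor of granzyme B, held 28, 29, 41 and 2 UMIs, and was lower in Papain KO than in Papain WT (log2 ratio −4.07, −7.16 to −2.12). Nrgn held 58 UMIs in DPBS KO and 10 in DPBS WT, in 6 cells each, with 25 and 20 of the 58 in 2 cells. In DPBS KO 1 cell held 80 of 105 Stmn1 UMIs and 1 cell 18 of 26 Tyms UMIs. The rule also named Cnn3, Tyms, Alas1, Exosc2, Lpin1, Pknox1, Ddx47, Pdcd11, Stmn1 and Hilpda.

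Over the cytotoxic core list, 8 genes had enough UMIs for KO over WT with DPBS, of which 5 lay below a log2 ratio of −1 and none above 1, with a median of −1.07 beside 0.07 for all genes. With papain 7 had enough UMIs, none passed 1 either way, and the median was −0.58 beside −0.03. With only cells that held a γ constant UMI, 3 of the 8 lay below −1 and 1 above 1 with DPBS. The median was −0.90 with DPBS and 0.062 with papain. Without doublet-scored cells 6 of the 8 lay below −1 with DPBS and none above 1, and the median was −1.19 with DPBS and −0.62 with papain. Markers of other cells moved with these values: for KO over WT with DPBS both NK genes with enough UMIs lay below −1 (median −1.61), as did all 5 macrophage genes (median −1.73, and −0.065 without doublet-scored cells). Their part in the cytotoxic values was not tested. The NK list shares Eomes with the cytotoxic core list, and Klrb1c and Klre1 with the wider one, so that its values are not independent of these lists. In the additive model none of the 11 genes of the cytotoxic core list was called for KO over WT, at a median of −0.94. Of 5 type 17 core genes with enough UMIs, the median KO over WT log2 ratio was −0.24 with DPBS, where 1 lay below −1, and 0.78 with papain, where 2 lay above 1 and 1 below −1. For papain over DPBS 3 of 5 lay below −1 in WT with a median of −1.23, and 1 of 3 in KO with a median of 0.077. Of the genes that the study connected with Ift20, 2 of 3 in AKT and mTOR signalling, 3 or 4 of 4 in glycolysis and 4 or 5 of 5 in pyruvate metabolism and the TCA cycle had enough UMIs in a given contrast, and none of these had a log2 ratio past 1 in either direction in the 4 contrasts. Of the Ift20 complex with its partners 4 of 9 had enough UMIs. Tsg101, a gene of the endosomal sorting machinery, held 32, 25, 30 and 10 UMIs in library order, and was the 1 gene of these past 1, at −1.30 (−2.49 to −0.22) for KO over WT with papain and −1.24 (−2.47 to −0.14) for papain over DPBS in KO. For KO over WT with DPBS its log2 ratio was −0.023, and in the additive model Tsg101 passed edgeR's test for neither effect.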

How the data were processed

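Per the file headers, Cell Ranger 3.1.0 wrote the deposited matrices, which hold raw counts of UMIs per gene (31053 genes) and cell barcode, not normalized, and the authors' notes name the build mm10. How cells were called, and whether doublets were removed, is not given in the sources used here. Groups came from the genotype and treatment labels. Whether libraries pool mice is not given, so that p-values measure only the spread between these 4 libraries.

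Barcodes were filtered on genes and mitochondrial UMIs, the rule was applied to raw UMIs, and counts were summed per library and gate. Shares carry exact Clopper-Pearson intervals, CPM exact Poisson intervals and ratios exact conditional binomial intervals. These cover counting error only. Sums of 8 library and cell combinations were tested in edgeR 4.0.16 (R 4.3.3) with TMM, filterByExpr and a library block, called at an adjusted p of 0.05, and the code was tested on simulated data. Genotype and treatment were fitted together over the 4 sums of Trdc+ T cells, in an additive model added after seeing the data. DESeq2 1.42.0 was an alternative. Scrublet (scanpy 1.11.5) gave doublet scores, and the top-scoring barcodes were kept in the main values and left out in an alternative, up to 0.8% per 1000 barcodes of a library. Sequences and positions came from GENCODE M21 (GRCm38).

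Named genes were, against T cells, the 10 with the largest fold change each way among those called in both comparisons, ranked by the smaller change, and between libraries the 5 with the largest ratio each way among genes with at least 30 UMIs, 10 cells and an interval without 0, with the genes of lists that a sentence is about. List counts between libraries used the same UMI minimum. The members, the 24 gene lists and the tests were chosen with earlier results of these data known. The alternatives on Trac were added after seeing the data. The result of 1 gene of the lists is not reported here.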

Additional observations from a re-analysis of the deposited data

Results flagged for a closer look

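In the Trdc+ T cells, several named genes went opposite ways for KO over WT in the 2 treatments. With 1 library per group these differences were not tested, and 124 of 3569 genes went opposite ways in this sense. The log2 ratios with DPBS and with papain were −5.47 and 3.65 for Il1b, −4.61 and 3.72 for Cxcl2, −1.76 and 3.76 for Ifitm2, −3.96 and 2.83 for Ifitm3, −3.78 and 3.01 for H2-Aa, −2.62 and 2.74 for H2-Eb1, −4.20 and 1.59 for Cd74, and −3.84 and 1.998 for Ms4a6c. These 8 genes were lower in KO with DPBS and higher in KO with papain. Il1b, Cxcl2, H2-Aa, H2-Eb1 and Cd74 each held most of their UMIs in 1 cell in DPBS WT and in Papain KO. Ifitm2, Ifitm3 and Ms4a6c did so in DPBS WT.

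Going the other way, the log2 ratios with DPBS and with papain were 2.20 and −0.87 for Pmepa1, 1.14 and −1.76 for Stmn1, 0.44 and −0.86 for Hilpda, and 2.57 and −2.82 for Tubb2a. For papain over DPBS, Cxcl10 had a log2 ratio of −2.72 in WT and 0.75 in KO.

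The KO over WT log2 ratio of Ift20 with DPBS was higher in Trdc+ T cells than in CD4 T cells by 1.07 and than in CD8 T cells by 1.26, with counting intervals that exclude 0 and no replicate check.

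Trdc UMIs were also found outside the Trdc+ T cells, in 33 barcodes without any CD3 transcript and in 24 with CD3 and Ncr1 transcripts. Among these, γ constant UMIs were found in 6.06% and 25.0%. They were found in 67.6% of the 37 barcodes with Trdc, CD3 and Cd79a transcripts.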

How the results depend on the processing

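Of the main values recomputed under the alternatives, 159 stayed on their side of the threshold or within their interval, 20 moved, 17 grew and 11 weakened. Of the values of named genes against CD4 and CD8 T cells, 1271 kept their call, 136 lost it and 1 reversed, and of those between libraries 406 stayed, 78 moved and 8 reversed. The causes were not tested.

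The share of Trdc+ T cells over all libraries moved to 0.668% with at least 2 Trdc UMIs, 0.563% with a γ constant UMI, 0.635% without cells that held Trac and no γ constant UMI, 0.447% without cells that held Trac and 0.0145% (4 cells) without Trac, Trbc1 and Trbc2. Under the last setting no other result was run, because too few cells remained. Without Trac-positive cells the KO over WT log2 ratio of the share with papain was −0.80, the type 17 share in DPBS WT 26.5% and the cytotoxic share with papain 68.2% for WT and 72.2% for KO. Over the libraries in the order above, the cytotoxic share was 75.5%, 65.7%, 66.7% and 65.5% with a γ constant UMI (KO over WT log2 ratio with papain −0.025). Without cells that held Trac and no γ constant UMI it was 73.1% in DPBS WT and, with papain, 67.3% for WT and 64.5% for KO (log2 ratio −0.061), and with at least 2 Trdc UMIs it was 68.5% and 58.8% with papain. Thinned to 1500 UMIs it was 46.5%, 27.5%, 43.9% and 23.5%, and with at least 3 core genes 46.5% in DPBS WT and 31.5% in DPBS KO.

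Against CD4 T cells the genes higher numbered 219 with all genes tested, 60 with T cell sums thinned to the depth of the Trdc+ T cells, 150 with a γ constant UMI and 161 without cells that held Trac and no γ constant UMI, and from 54 to 99 when a library was left out. Those lower numbered 37 without TMM, 294 with all genes, 107 with at least 2 Trdc UMIs, 116 with a γ constant UMI, 123 without doublet-scored barcodes, 124 without cells that held Trac and no γ constant UMI, 154 without Trac-positive cells, and from 26 to 88 when a library was left out. Against CD8 T cells 761 were higher and 130 lower without TMM, 284 and 399 with all genes, and 104 higher after thinning, with from 86 to 156 higher and from 134 to 175 lower when a library was left out. DESeq2 called 126 higher and 71 lower against CD4 T cells and 171 and 175 against CD8 T cells.

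Without Trac-positive cells the KO over WT log2 ratio reversed to −0.39 for Tyms with DPBS and, with papain, to −0.52 for S100a9, −0.52 for Ifitm2, −2.22 for Cxcl2 and −0.84 for Il1b, the papain over DPBS ratio in KO to −0.47 for Ifitm3 and −1.80 for Cxcl2, and Ly6c2 against CD8 T cells to 0.078. With a γ constant UMI, Tubb2a for papain over DPBS in WT reversed to −0.078. Under the additive model, 3 genes were higher and 8 lower in KO and 2 higher and 6 lower with papain when all genes with a UMI were tested, and DESeq2 called 1 lower with papain, beside none in the main values. No paired analysis was possible because the 4 groups have 1 library each and share only the number 1, and the comparisons with CD4 and CD8 T cells had the library as block. Low counts limit several values, with 13 to 36 UMIs per library for Ift20 and 2 to 41 for Serpinb9.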
